A study of Mus musculus with 32 samples.

Results

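Mitosis is driven by a small set of kinases, motors and chromosome-bound complexes, and the 43 genes described here encode its core: the cyclin-dependent kinase Cdk1 with its cyclins and phosphatases, the Aurora and Polo kinases, the spindle checkpoint, the kinesins that build the spindle and the centromere and kinetochore proteins that hold chromosomes to it. The genes were taken as a named list of mouse symbols, matched by Ensembl identifier to the 37310 genes of the tumor count table. All 43 were found, and all 43 were among the 21024 genes with enough counts to be tested. They were compared between hindbrain tumors of the GMYC mouse model and tumors of the GTML model. All 8 GTML tumors were used, although 1 of them had a SHH-like signature and was not in the published comparison of the models. The labels do not say which tumor it was, and leaving out each GTML tumor in turn is reported with the results.

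In GMYC mice, the tetracycline transactivator tTA is expressed from the Glt1 promoter, which is active in glial and progenitor cells of the hindbrain, and switches on a TRE-driven MYC transgene. GTML mice carry the same Glt1-tTA driver, with MYCN and luciferase under the TRE element in place of MYC. Bulk RNA from 6 GMYC and 8 GTML fresh-frozen brain tumor biopsies was sequenced on the Ion Torrent platform, each tumor as 1 library. The labels give neither the age and sex of the animals nor which tumors were sequenced together. The paper cites an earlier study for most or all of the GTML tumors, so that batch and model cannot be told apart. In bulk RNA, fewer dividing cells and less mitotic RNA per cell cannot be told apart either.

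During a cell cycle, the messages of these genes are low in G1, rise through G2 and peak in mitosis, and many of the proteins are destroyed when the cell divides. Cdk1 bound to cyclin B starts mitosis. Aurora A and Plk1 mature the centrosomes and spindle, Aurora B and its partners correct faulty attachments, and the checkpoint holds back the anaphase-promoting complex, a ubiquitin ligase, until every kinetochore is attached. Cdc20 then activates that ligase, cyclin B and securin are degraded, and separase cuts the rings that hold sister chromatids. In tumor tissue, RNA of this group is widely read as a measure of the share of dividing cells.

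The promoters of many such genes hold CCAAT boxes, bound by the factor NF-Y, and a cell cycle genes homology region (CHR), which is bound by the repressive DREAM complex in resting cells and by complexes with B-Myb and FoxM1 in dividing ones. RefSeq promoter windows of the GRCm38.p6 assembly, from 250 bases before to 50 bases after the start, were matched by symbol for 35 of the 43 genes, with 36 windows in all because Bub3 had 2. The 120 bases before the start are shown for 6 genes that differed between the models. They are also shown for Ccnb1, which differed and lacks the CHR letters anywhere in its 300-base window. Those of Cdc25b and Cdc20, which did not pass the test, follow. The CHR letters of Ccnb2, Plk1, Ttk and Cdc25b lie in their windows but outside the 120 bases shown. Sequences run 5′ to 3′ on the strand of the gene, and capitals mark CCAAT or its reverse complement ATTGG and TTTGAA or TTCAAA.
Cdk1, chr10:69352913-69353032, minus strand: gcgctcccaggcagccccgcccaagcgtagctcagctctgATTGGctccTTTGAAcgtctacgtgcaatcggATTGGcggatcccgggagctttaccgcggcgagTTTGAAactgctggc
Ccnb1, chr13:100786487-100786606, minus strand: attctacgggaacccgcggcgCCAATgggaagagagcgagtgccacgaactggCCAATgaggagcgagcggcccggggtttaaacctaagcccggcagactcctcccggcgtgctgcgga
Ccnb2, chr9:70421555-70421674, minus strand: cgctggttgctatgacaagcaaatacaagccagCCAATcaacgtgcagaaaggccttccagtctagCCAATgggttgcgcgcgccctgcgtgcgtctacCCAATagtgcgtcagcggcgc
Plk1, chr7:122159315-122159434, plus strand: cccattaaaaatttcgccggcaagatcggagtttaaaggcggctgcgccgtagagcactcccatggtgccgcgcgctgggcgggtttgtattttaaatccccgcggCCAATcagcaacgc
Ttk, chr9:83834569-83834688, plus strand: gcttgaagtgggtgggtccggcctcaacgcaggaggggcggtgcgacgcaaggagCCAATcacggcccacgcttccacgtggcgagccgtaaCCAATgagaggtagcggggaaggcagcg
Ube2c, chr2:164769809-164769928, plus strand: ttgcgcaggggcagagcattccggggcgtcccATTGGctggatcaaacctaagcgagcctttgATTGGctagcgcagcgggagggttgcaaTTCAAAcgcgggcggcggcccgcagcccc
Kif11, chr19:37376262-37376381, plus strand: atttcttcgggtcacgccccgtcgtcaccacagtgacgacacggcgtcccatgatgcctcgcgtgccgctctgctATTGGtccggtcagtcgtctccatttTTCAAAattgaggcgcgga
Cdc25b, chr2:131186828-131186947, plus strand: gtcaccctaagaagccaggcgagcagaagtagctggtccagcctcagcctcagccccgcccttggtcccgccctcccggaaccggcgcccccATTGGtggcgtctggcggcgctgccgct
Cdc20, chr4:118437344-118437463, minus strand: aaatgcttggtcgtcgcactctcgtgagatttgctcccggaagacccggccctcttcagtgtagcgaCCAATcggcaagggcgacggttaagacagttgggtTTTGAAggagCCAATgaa

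Searched on both strands, CCAAT was found in 75% of the members' windows and in 37.4% of the 32851 windows of all genes. A pair or more of CCAAT sites was found in 50% of the members' windows against 11.7% of all. The CHR letters TTTGAA stood in 66.7% of the members' windows and 17.9% of all, or in 72.2% and 19.2% where TTCGAA was counted too. Both CCAAT and either CHR form, TTTGAA or TTCGAA, within 60 bases of each other were found in 52.8% against 3.72%. The E-box CACGTG, the letters bound by MYC and MYCN with Max, was found in 8.33% of the members' windows and 7.15% of all. These are matches of letters, and no binding was measured.

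By gene, 26 of the 35 held CCAAT, 25 held TTTGAA or TTCGAA, 22 held both and 6 held neither. The 58 CCAAT sites had a median position of -67.5 from the start, with 40 of them in the 120 bases before it. The 34 CHR sites had a median position of -16.5, and 23 lay within 50 bases of it. All 7 genes that differed between the models and had a window held CCAAT, and 6 of the 7 held the CHR letters. Of the other 28 genes with a window, 19 held CCAAT and 19 the CHR letters, and the difference was not tested.

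**Figure D1:**
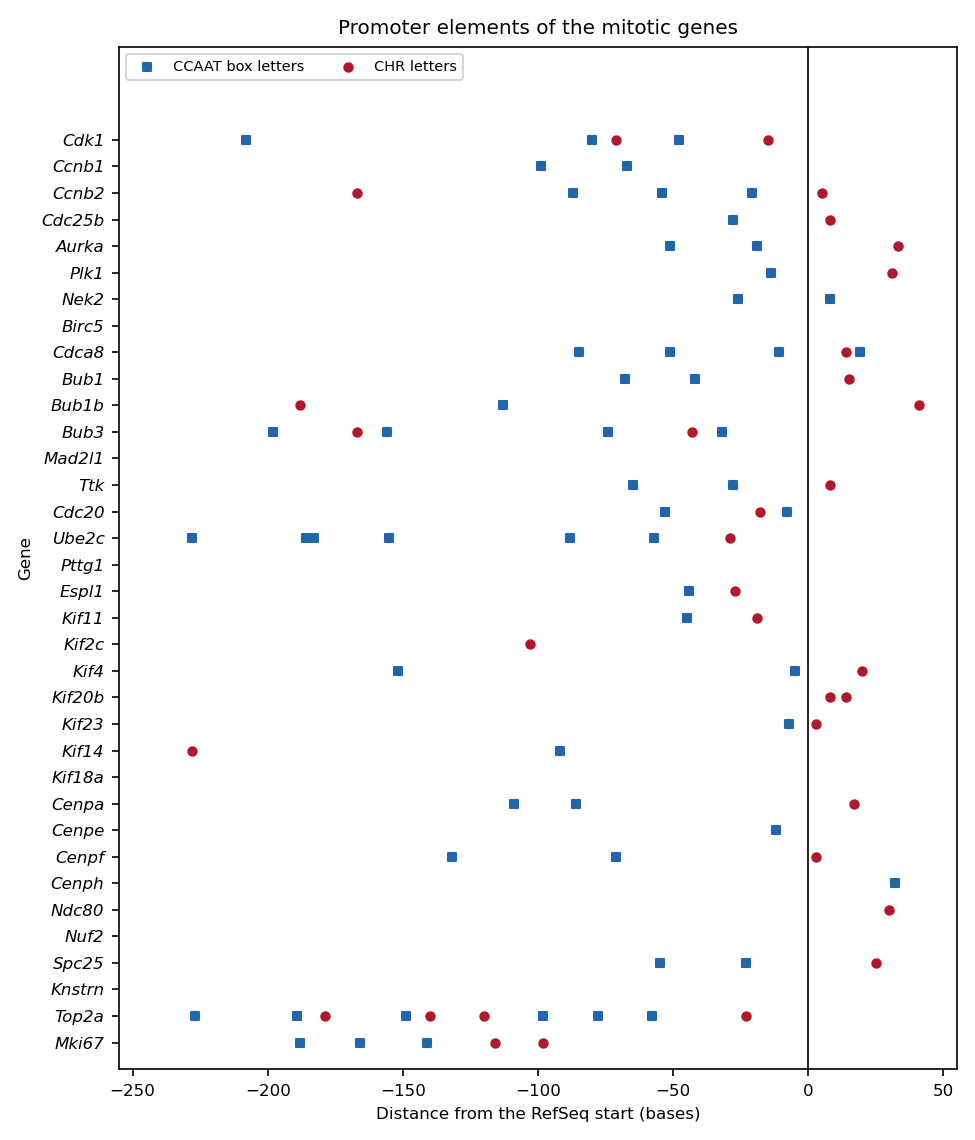
Positions of CCAAT (blue squares, either strand) and of the CHR letters TTTGAA or TTCGAA (red circles, either strand) in the promoter windows of 35 mitotic genes, in bases from the RefSeq start, with both windows of Bub3 on 1 line. Most CCAAT marks lie in the 120 bases before the start and most CHR marks lie near the start, while 6 genes have no mark.

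Library totals were 6218378 to 7279811 counts in GMYC tumors and 4602294 to 6317404 in GTML tumors. Levels are given as CPM, the counts scaled by the TMM-adjusted size of each library to a common total, and fold changes as log2 of GTML over GMYC from edgeR's quasi-likelihood test, so that a negative value is a lower level in GTML tumors. A gene was counted as called at an adjusted p under 0.05 over all tested genes (Benjamini-Hochberg). Myc stood at 134 to 165 CPM in GMYC tumors 1 to 5, at 33.3 CPM in GMYC tumor 6 and at 2.59 to 8.66 CPM in GTML tumors, while Mycn stood at 118 to 191 CPM in GTML tumors and at 7.64 to 34.3 CPM in GMYC tumors. GMYC tumor 6 thus stands apart from the other GMYC tumors in its Myc counts, and results are given with and without it. The paper describes the transgene as human MYC, while reads were aligned to the mouse genome. How much of the Myc count came from the transgene cannot be told. Small nucleolar RNA took 0.366% or more of counts in GMYC tumors 1 to 4 and GTML tumors 1 and 2, and 0.272% or less in the other 8 tumors.

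Of the 43 mitotic genes, 10 were called higher in GMYC tumors (23.3%), where 9.71% of all tested genes were, and 0 were called higher in GTML tumors, where 11.5% of all genes were. At an unadjusted p under 0.05, 19 members were higher in GMYC and 0 in GTML, against 17.4% and 20.4% of all genes, and DESeq2 and limma-voom also called 0 members higher in GTML. The fold change was below 0 for 40 of the 43 members, with a median of -0.32 on the log2 scale and a range of -2.13 to 0.19, but the 95% interval included 0 for 24 members. The median over all tested genes was 0.04. No member passed the thresholds used in the study on that smaller set of tumors (adjusted p below 0.01 with a change of more than 1 on the log2 scale), which 3.22% of all genes passed.

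The size of the difference depended on which tumors were included. Without GMYC tumor 6, 5 members were called (Ccnb1, Usp44, Ube2c, Kif11 and Spc24), or 11.6% of members against 7.96% of all genes, and the median moved to -0.21. Without GMYC tumor 3, 4 were called, or 9.3% against 5.65% of all genes. Without GTML tumor 5, 6 were called, or 14% against 6.58% of all genes, and without GTML tumor 2, 19 were called, or 44.2% against 15.1% of all genes. Without GMYC tumor 4, 14 were called, or 32.6% against 9.05% of all genes. With both GMYC tumor 6 and GTML tumor 2 left out, 11 were called, or 25.6% against 14.5% of all genes, and the median was -0.25. Ccnb1, Usp44, Kif11 and Spc24 were called whichever 1 tumor was left out, and no omission gave a member called higher in GTML.

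The fitted difference was larger among the tumors with less small nucleolar RNA, although the difference between the sets was not tested. The GMYC tumors under 0.3% were tumors 5 and 6, with a mean log2 CPM over the members of 6.629 and 7.345. GMYC tumor 6 was the highest of all tumors. The GTML tumors at 0.3% or more were tumors 1 and 2, at 6.238 and 6.844. GTML tumor 2 was the highest of its model. Whether the sets differed through small nucleolar RNA or through these single tumors was not tested. Within the 2 GMYC and 6 GTML tumors under 0.3%, 8 members were called, or 18.6% against 6.69% of all genes, and the median log2 fold change was -0.57. Within the 4 GMYC and 2 GTML tumors at 0.3% or more, 0 members were called by edgeR, 1 had an unadjusted p under 0.05, and the median was -0.15. In that smaller set edgeR called 2 genes of 18921 higher in GMYC and 0 higher in GTML. With the split as a term in the fit, 6 members were called, or 14% against 6.77% of all genes. With a covariate made from Y-linked genes, 1 member (Spc24) was called, or 2.33% against 2.64% of all genes, and the median was -0.37.

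**Figure D2:**
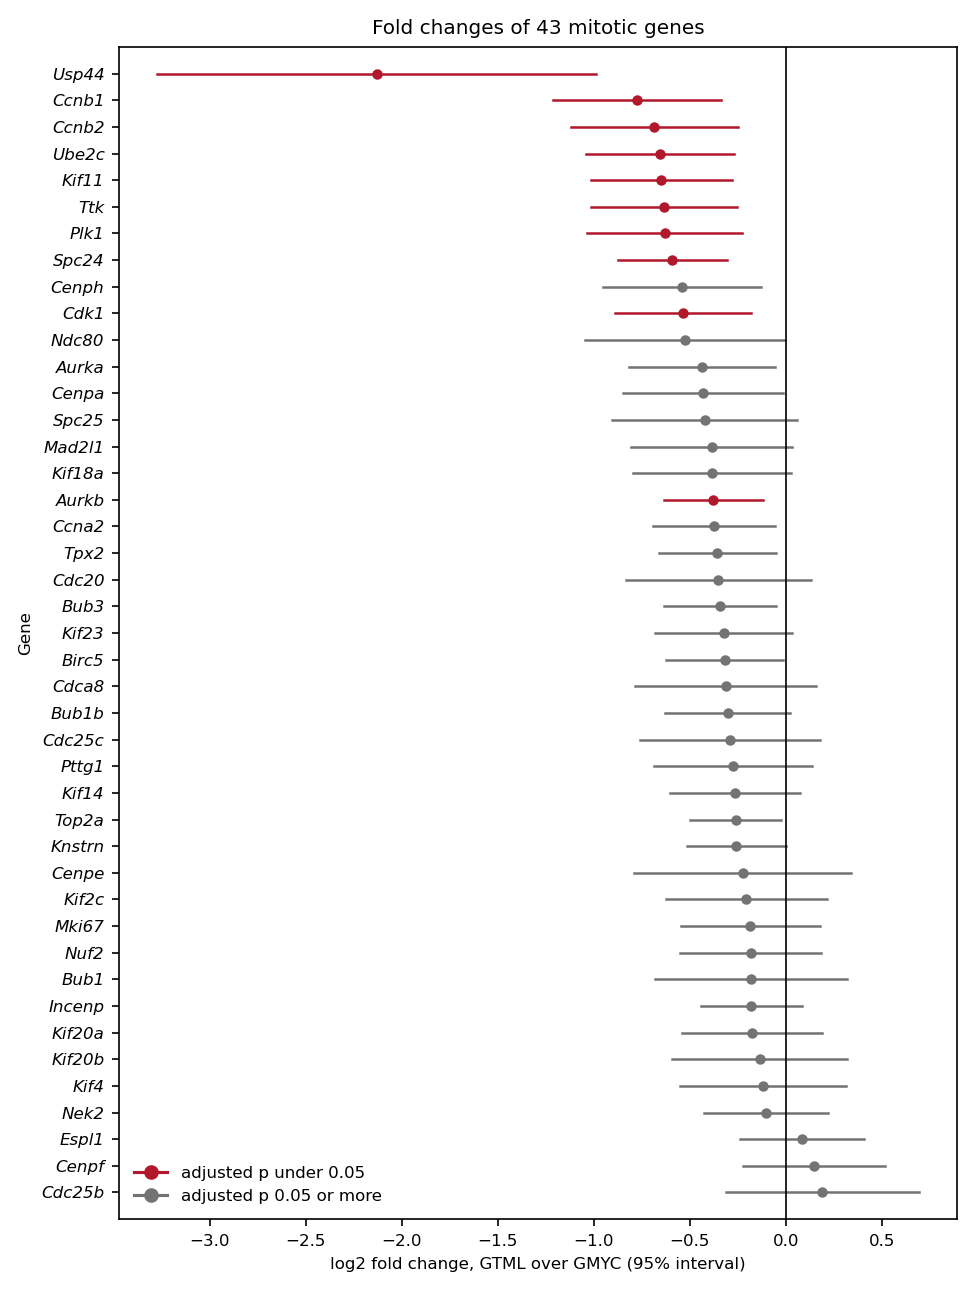
Log2 fold change of each of the 43 mitotic genes, GTML over GMYC, with its 95% interval from edgeR's fit on 6 GMYC and 8 GTML tumors, red where the adjusted p was under 0.05. Points for 40 genes lie left of 0, Usp44 lies farthest left at -2.13, and Espl1, Cenpf and Cdc25b lie right of 0 with intervals that include it.

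Cyclin B, the partner that gives Cdk1 its mitotic activity, showed the clearest difference among the cyclin-CDK genes, of which 3 of 6 were called. Ccnb1 (ENSMUSG00000041431) ran from 96.7 CPM through a median of 148 to 231 CPM in GMYC tumors and from 50.3 through 90.9 to 141 CPM in GTML tumors. All 8 GTML tumors lay below the GMYC median, 4 of them below every GMYC tumor, and GTML tumor 2 was the highest of its model. The difference was -0.77 ± 0.21 (SE), a 1.71-fold higher level in GMYC, with an adjusted p of 0.0176 (edgeR) that ranged from 0.0045 to 0.0432 when single tumors were left out. The processed pseudogene Ccnb1-ps, which can take reads from Ccnb1, stood at 23.1 to 47.5 CPM in GMYC and 5.16 to 22.7 CPM in GTML tumors, so it was also higher in every GMYC tumor.

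Ccnb2 (ENSMUSG00000032218), the cyclin B found at the Golgi, had 42.1, 50.3 and 101 CPM as lowest, median and highest value in GMYC tumors and 24.96, 35.7 and 47.7 CPM in GTML tumors. The models overlapped, GMYC tumor 6 lay far above the rest, and 5 GTML tumors were below every GMYC tumor. The difference was -0.68 ± 0.20 with an adjusted p of 0.0285, and the call was lost without GMYC tumor 6 (-0.46, adjusted p = 0.0698), GMYC tumor 3 (0.057) or GTML tumor 5 (0.0557). Its transcribed pseudogene Ccnb2-ps went the other way, at 10.8 to 24.2 CPM in GMYC and 19.8 to 35.7 CPM in GTML tumors, and reads split between them cannot be told apart.

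Cdk1 (ENSMUSG00000019942), the kinase itself, had 99.4, 140 and 199 CPM in GMYC tumors and 64.2, 96.3 and 126.5 CPM in GTML tumors. All 8 GTML tumors lay below the GMYC median, and 4 lay below every GMYC tumor. The difference was -0.53 ± 0.17 with an adjusted p of 0.0348. It was lost without any 1 of GMYC tumors 1, 3 and 6 or GTML tumors 3, 5, 6 and 7, with adjusted p-values of 0.0506 to 0.084. Ccna2, the cyclin of S phase and early mitosis, did not pass (medians 207 and 144 CPM, log2 fold change -0.37, adjusted p = 0.0818), but did without GMYC tumor 4 (0.0474), GTML tumor 2 (0.0313) or GTML tumor 4 (0.0367). The CDC25 phosphatases, which remove the inhibitory phosphates from Cdk1, showed no such pattern: Cdc25c had medians of 47.2 and 42.0 CPM (-0.29), and Cdc25b had 32.6 and 40.7 CPM (0.19, 95% interval -0.31 to 0.69), the highest fold change of the 43 genes. Ccna2 and Cdc25c share 510 and 623 exon bases with genes on the other strand, and how strand was handled in counting was not stated.

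Among the mitotic kinases and spindle activators, 1 of 4 was called. Plk1 (ENSMUSG00000030867), the Polo kinase of centrosome maturation and mitotic entry, had 59.1, 77.2 and 131 CPM in GMYC tumors and 33.1, 51.3 and 76.3 CPM in GTML tumors. All GTML tumors lay below the GMYC median and 6 of 8 lay below every GMYC tumor. The difference was -0.63 ± 0.19 with an adjusted p of 0.0297, and it was lost without GMYC tumor 6 (-0.46, adjusted p = 0.0732), GMYC tumor 3 (0.0589) or GTML tumor 5 (0.0538). Aurka, the Aurora kinase of the spindle poles, had 82.9, 101 and 149 CPM in GMYC and 47.6, 74.8 and 122 CPM in GTML tumors. Here too 6 GTML tumors were below every GMYC tumor, but the difference of -0.44 ± 0.18 did not pass (adjusted p = 0.088), except without GTML tumor 2 (0.0175). Tpx2, which activates Aurora A on spindle microtubules, had all 8 GTML tumors below the GMYC median without passing (-0.36, adjusted p = 0.0835), except without GMYC tumor 4 (0.0309). Nek2, the kinase that splits the centrosomes, had almost the same median in both models, 135 and 137 CPM (-0.10, 95% interval -0.43 to 0.22).

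The chromosomal passenger complex, which brings Aurora B to centromeres and then to the midzone, had 1 of 4 subunits called. Aurkb (ENSMUSG00000020897), its kinase, had 71.3, 81.7 and 122 CPM in GMYC tumors and a narrow 60.9, 70.5 and 76.1 CPM in GTML tumors. All GTML tumors lay below the GMYC median, 5 of them below every GMYC tumor. At -0.38 ± 0.12 and an adjusted p of 0.0392 it was the smallest difference called, and it was kept only without GMYC tumors 2 or 4 or GTML tumors 1 or 2. Leaving out any other tumor gave an adjusted p of 0.0509 to 0.0983. Birc5 (survivin), the subunit that reads the centromere mark, had 54.2, 71.3 and 112 CPM in GMYC tumors and 48.0, 61.7 and 73.5 CPM in GTML tumors, a difference of -0.32 ± 0.14 that did not pass (adjusted p = 0.12). Cdca8 (borealin) and the scaffold Incenp had log2 fold changes of -0.31 and -0.18, and GTML tumor 2 held the highest Cdca8 level of all 14 tumors at 158 CPM. Without that tumor, Cdca8 passed (-0.51, adjusted p = 0.0319).

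The spindle checkpoint held the largest difference of the group, with 2 of 6 genes called. Usp44 (ENSMUSG00000020020), a deubiquitinase that stabilises the checkpoint complex on Cdc20, had 14.6, 23.9 and 35.3 CPM in GMYC tumors and 0.61, 3.24 and 19.97 CPM in GTML tumors. In 7 of 8 GTML tumors it lay below every GMYC tumor, and GTML tumor 2 was the exception. The difference was -2.13 ± 0.54, a 4.38-fold higher level in GMYC, with an adjusted p of 0.0145. It was called whichever 1 tumor was left out, and without GTML tumor 2 the difference grew to -2.86. Per kilobase of exon Usp44 had the lowest level of the 43 genes, with a median of 2.66 CPM per kb over all tumors, 5.93 in GMYC and 0.80 in GTML.

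Ttk (ENSMUSG00000038379), the Mps1 kinase that starts checkpoint signalling, had 57.3, 90.1 and 135 CPM in GMYC tumors and 39.1, 58.3 and 75.8 CPM in GTML tumors. All GTML tumors were below the GMYC median. The difference was -0.63 ± 0.18 with an adjusted p of 0.023, and it was lost without GMYC tumor 3 (adjusted p = 0.0544) or GMYC tumor 6 (-0.48, 0.0542). The other checkpoint proteins did not pass: Mad2l1 had a fold change of -0.38 (adjusted p = 0.165), Bub3 of -0.34 (0.0823), Bub1b of -0.30 (0.158) and Bub1 of -0.18 (0.596). Without GTML tumor 2, Mad2l1 (adjusted p = 0.0369) and Bub3 (0.0283) passed. Bub1 ranged from 59.7 to 155 CPM across GTML tumors.

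Of the genes that carry anaphase, 1 of 4 was called. Ube2c (ENSMUSG00000001403), the E2 enzyme that starts ubiquitin chains on substrates of the anaphase-promoting complex, had 58.1, 72.8 and 88.4 CPM in GMYC tumors and 31.6, 45.6 and 69.5 CPM in GTML tumors. In 6 of 8 GTML tumors the level was below every GMYC tumor. The difference was -0.65 ± 0.18 with an adjusted p of 0.0211, and it was lost without GMYC tumor 3 (adjusted p = 0.0515). Ube2c shares 592 exon bases with Tnnc2 on the other strand, but Tnnc2 had at most 6 counts in any tumor. Cdc20, the activator of the ligase and target of the checkpoint, had 87.7, 110.5 and 125 CPM in GMYC tumors and 45.9, 69.8 and 158 CPM in GTML tumors. Its median was lower in GTML and 6 tumors lay below every GMYC tumor, but GTML tumor 2 was the highest of all 14, and the difference of -0.35 ± 0.23 did not pass (adjusted p = 0.266), although it did without that tumor (-0.53, adjusted p = 0.0386). Securin (Pttg1) had a fold change of -0.27, and separase (Espl1), which cuts cohesin, had 0.08 (95% interval -0.24 to 0.41).

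All 8 kinesin genes had lower fitted levels in GTML, with a median log2 fold change of -0.23, and 1 of them was called. Kif11 (ENSMUSG00000012443), the Eg5 motor that pushes spindle poles apart, had 171, 285 and 432 CPM in GMYC tumors and 144, 178 and 231 CPM in GTML tumors. All GTML tumors lay below the GMYC median, 4 of them below every GMYC tumor. The difference was -0.65 ± 0.17 with an adjusted p of 0.0183, between 0.00944 and 0.0444 when single tumors were left out. Kif18a, which dampens chromosome movement on the spindle, had 62.4, 99.1 and 126 CPM in GMYC tumors and 44.2, 72.7 and 105 CPM in GTML tumors, and its difference of -0.38 ± 0.19 did not pass (adjusted p = 0.161).

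The other motors differed less. Kif23, a subunit of the centralspindlin complex of cytokinesis, had all GTML tumors below the GMYC median (-0.32, adjusted p = 0.169). Kif14, of the midbody, had -0.27, and the microtubule depolymerase Kif2c had -0.20. Kif20a, Kif20b and Kif4 had fold changes of -0.18, -0.14 and -0.12, with intervals that reached 0.19, 0.32 and 0.31 on the other side of 0. Kif20a and Kif4 share 1271 and 832 exon bases with Cdc23 and Pdzd11 on the other strand.

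At the centromere and kinetochore, 1 of 9 genes was called. Spc24 (ENSMUSG00000074476), a subunit of the Ndc80 complex that binds microtubules, had 45.9, 49.5 and 57.3 CPM in GMYC tumors and 23.6, 34.4 and 42.4 CPM in GTML tumors. It was the one member whose models did not overlap, where 2.48% of all genes had every GTML tumor below every GMYC tumor and 2.14% every GTML tumor above. The difference was -0.59 ± 0.13 with an adjusted p of 0.00942, the smallest of the group, and between 0.00588 and 0.0272 when single tumors were left out. The other 3 subunits of that complex did not pass: Ndc80 had a fold change of -0.52 (adjusted p = 0.132), Spc25 of -0.42 (0.185) and Nuf2 of -0.18 (0.459). Ndc80 passed without GTML tumor 2 (adjusted p = 0.0457).

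Cenph, a protein of the inner kinetochore, had 28.5, 32.9 and 52.1 CPM in GMYC tumors and 17.8, 24.5 and 35.9 CPM in GTML tumors. Its difference of -0.54 ± 0.19 lay just outside the threshold (adjusted p = 0.0567), and it passed without GMYC tumor 2 (0.0432), GMYC tumor 4 (0.0493) or GTML tumor 2 (0.0188). Cenpa, the histone variant that marks centromeres, had a fold change of -0.43 (adjusted p = 0.121, or 0.0351 without GTML tumor 2), and the kinetochore motor Cenpe had -0.22. Knstrn had -0.26, and the large outer protein Cenpf had 0.15 (95% interval -0.22 to 0.52).

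The 2 general proliferation genes were the most abundant per length, and neither passed the test. Mki67, the Ki-67 protein that coats mitotic chromosomes, had the highest level at a median of 69.7 CPM per kb of exon, level with Top2a, the topoisomerase that untangles sister chromatids. Mki67 ran through 520, 733 and 1069 CPM in GMYC tumors and 413, 668 and 805 CPM in GTML tumors, a difference of -0.18 ± 0.17 (adjusted p = 0.448). Top2a had 505, 751 and 918 CPM in GMYC tumors and 543, 596 and 654 CPM in GTML tumors. All GTML values of Top2a lay below the GMYC median but none below the lowest GMYC tumor, and the difference of -0.26 ± 0.11 did not pass (adjusted p = 0.0984), although it did without GMYC tumor 4 (-0.34, adjusted p = 0.0224).

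**Figure D3:**
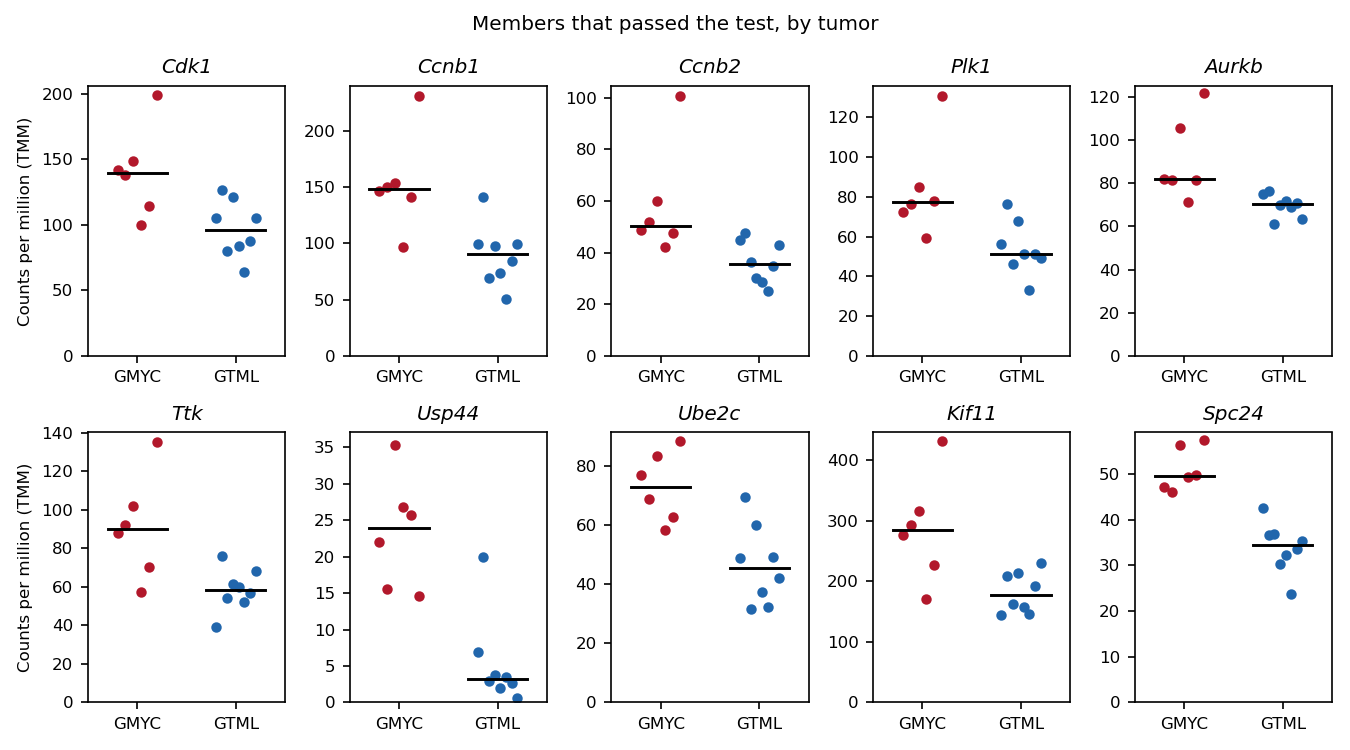
CPM of the 10 mitotic genes called at an adjusted p under 0.05, with 1 point per tumor (6 GMYC in red, 8 GTML in blue, in order of tumor number) and a bar at the median, on axes that start at 0. In every panel the GTML points lie below the GMYC median, and the models are fully apart for Spc24 alone.

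The levels of these genes varied together from tumor to tumor. GMYC tumor 6 had the highest level of all 14 tumors for 38 of the 43 genes, and the highest of its model for 41. GMYC tumor 4 had the lowest GMYC level for 38 genes. Among GTML tumors, tumor 2 was highest for 23 genes and tumor 4 for 11, while tumor 6 was lowest for 21 and tumor 1 for 13. As the mean of log2 CPM over the 43 genes, GMYC tumors ran from 6.36 through a median of 6.78 to 7.35, and GTML tumors from 6.07 through 6.43 to 6.84. The models therefore overlapped widely in the level of the whole group. Within models, the median Pearson r between pairs of members across the 14 tumors was 0.67, with 96.8% of pairs above 0, against 0.02 and 52.1% for protein-coding genes of similar mean level. These correlations are descriptions that share libraries and depth.

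The gene with the largest fold change and the one with the smallest adjusted p followed this shared variation least. Of the 43 genes, 41 had an r above 0.5 with the mean of the others within models, and Kif2c and Ndc80 had the highest values, 0.97 in both. The exceptions were Usp44, with an r of 0.05, and Spc24, with 0.33. GMYC tumor 6, the highest tumor for most of the group, had the lowest Usp44 level among GMYC tumors, 14.6 CPM. Mki67 had an r of 0.52 and Cenpf of 0.62.

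**Figure D4:**
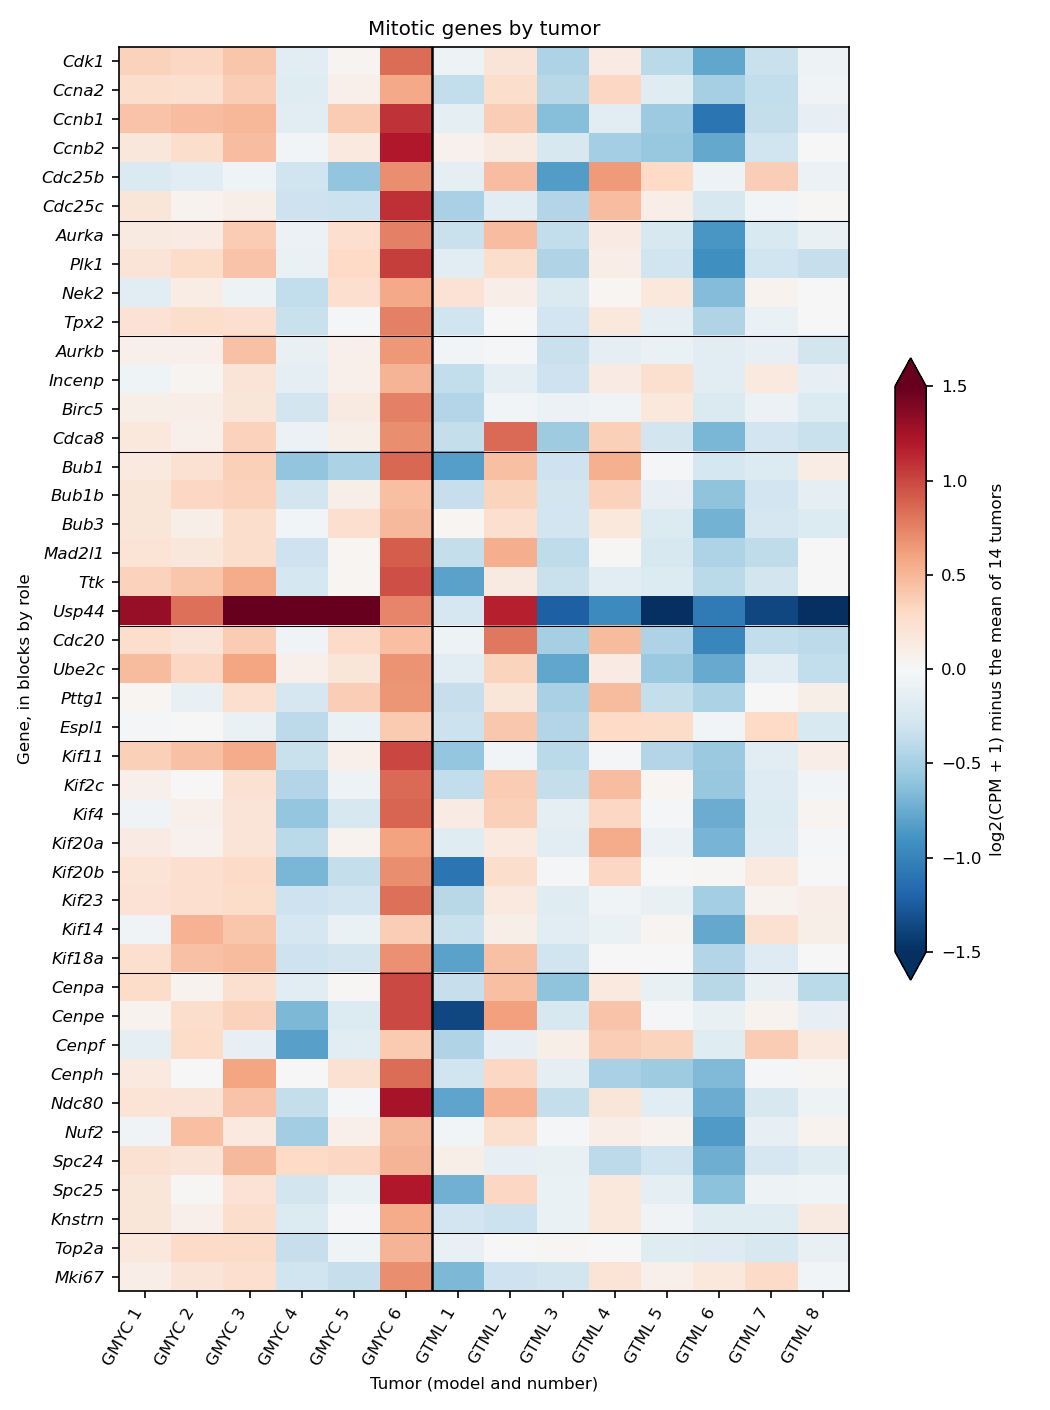
Level of the 43 mitotic genes (lines, in blocks by role) in the 6 GMYC and 8 GTML tumors (columns, divided by the black line), as log2(CPM + 1) minus the mean of the 14 tumors, with red above and blue below and the scale clipped at 1.5. The column of GMYC tumor 6 is red almost throughout, that of GTML tumor 6 mostly blue, and the line of Usp44 splits by model except for GTML tumor 2.

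Markers of other cell types were summed in the same tumors. The summed level of 7 astrocyte markers was 801 to 1374 CPM in GMYC tumors and 538.5 to 962 CPM in GTML tumors. None of the 7 was called, but all 7 had a log2 fold change below 0, with a median of -0.85. Of these, 2 had an unadjusted p under 0.05 (edgeR). By the medians, most of that sum was Slc1a2, at 682 CPM in GMYC and 621 CPM in GTML tumors. Slc1a2 is the gene of Glt1, whose promoter drives both models, so the sum does not measure astrocytes alone. The sum was highest in GMYC tumor 4 (1374 CPM) and, among GTML tumors, in GTML tumor 6 (962 CPM). These tumors were lowest of their model for 38 and 21 of the 43 mitotic genes. The sum was lowest among GTML tumors in tumors 4 (538.5 CPM) and 2 (550 CPM), which were highest of their model for 11 and 23 of the mitotic genes. Among GMYC tumors it was lowest in tumor 2 (801 CPM), while tumor 6, highest for most mitotic genes, had 1009 CPM. Summed endothelial markers were 63.0 to 174 CPM in GMYC and 121 to 267 CPM in GTML tumors, with 1 of 6 called (Kdr, higher in GTML), and red blood cell genes were 53.4 to 176 CPM and 41.5 to 134 CPM, with the 4 hemoglobin genes of 5 called higher in GMYC.

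Summed microglia markers were 176 to 275 CPM in GMYC and 94.3 to 345 CPM in GTML tumors (1 of 7 called, Cd68, higher in GMYC). Oligodendrocyte markers were 153 to 345 and 157 to 366 CPM (1 of 7, Mog, higher in GTML, with Opalin too low to test), and Purkinje markers 109 to 409 and 103 to 281 CPM (0 of 5). All 5 Purkinje markers had a log2 fold change below 0, with a median of -0.79. Granule neuron markers were 239 to 556 and 207 to 280.5 CPM with 3 of 7 called higher in GMYC (Cbln3, Fat2 and Neurod1), GMYC tumor 1 the highest and Gabra6 too low to test. Cbln3 and Fat2 had lower medians in GMYC (0.91 and 0.49 CPM) than in GTML (1.11 and 1.78 CPM), with GMYC maxima of 62.5 and 169 CPM. By the medians, most of the granule neuron sum was Neurod1, at 239 CPM in GMYC and 200 CPM in GTML tumors. T cell markers were 17.4 to 43.7 and 30.5 to 71.4 CPM, with Cd3d, Cd3e and Trac too low to test. Most of the T cell sum was Cd4, with medians of 26.7 CPM in GMYC and 30.7 CPM in GTML tumors. Markers of Group 3 medulloblastoma, a childhood tumor of the hindbrain, stood at 994 to 1185 and 750.3 to 1105 CPM, with Tubb3 called higher in GMYC and Eomes too low to test. GTML tumor 2 had the lowest Group 3 sum, with GTML tumor 6 next at 874 CPM. Which tumor had the SHH-like signature was not tested. The part of any of these cells in the mitotic levels was not tested.

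**Figure D5:**
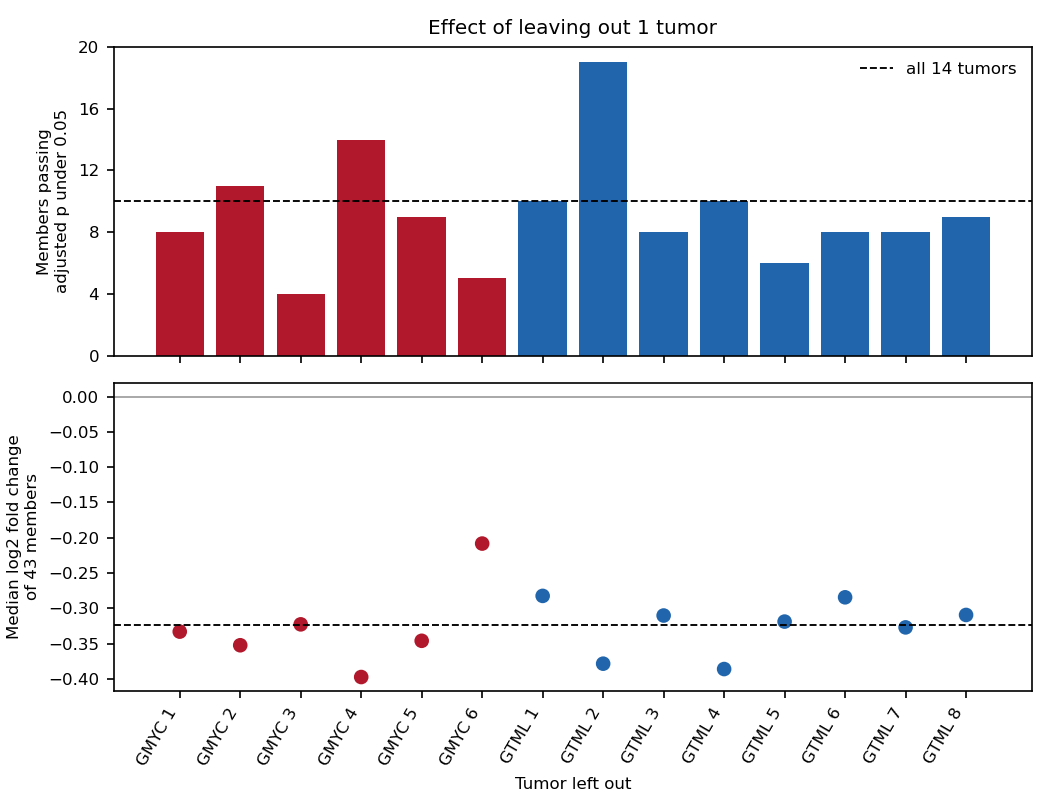
Number of the 43 mitotic genes called at an adjusted p under 0.05 (upper panel) and their median log2 fold change, GTML over GMYC (lower panel), when the tumor named below was left out, with dashed lines for all 14 tumors. The count ran from 4 without GMYC 3 to 19 without GTML 2, and the median from -0.40 without GMYC 4 to -0.21 without GMYC 6, never reaching 0.

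Other genes of the same pathway, listed by role, were compared in the same fit. Of 126 tested, 12 were called higher in GMYC, a share close to the 9.71% of all genes. Only 3 were called higher in GTML, where 11.5% of all genes were. The fold change was below 0 for 91 of the 126, with a median of -0.15 on the log2 scale, and for 9991 of all 21024 genes. The 126 include 8 cyclins and kinases of G1 and S phase, described last as a contrast. The genes of the anaphase-promoting complex and its regulators had 3 of 17 called, all higher in GMYC. Fbxo5 (Emi1), the inhibitor that keeps the ligase off before mitosis, had 60.01, 81.6 and 94.4 CPM in GMYC tumors and 38.0, 48.9 and 57.8 CPM in GTML tumors (-0.71 ± 0.13, adjusted p = 0.00419). Its models did not overlap, where 2.48% of all genes had every GTML tumor below every GMYC tumor. Ube2s, the E2 enzyme that extends the chains Ube2c starts, had medians of 62.9 and 36.5 CPM (-0.71, adjusted p = 0.0162), and the small subunit Anapc13 had 22.2 and 14.3 CPM (-0.67, 0.019). The call of Anapc13 was lost without GMYC tumor 3 (adjusted p = 0.0534), while Fbxo5 and Ube2s were called whichever tumor was left out.

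Among 36 further kinetochore and checkpoint genes, 3 were called higher in GMYC and 1 higher in GTML. Over all genes tested, 9.71% were called higher in GMYC and 11.5% higher in GTML. Cenpw had medians of 25.6 CPM in GMYC and 16.2 CPM in GTML tumors (-0.59, adjusted p = 0.0269), and Zwilch, which recruits dynein to kinetochores, had 78.3 and 56.4 CPM (-0.46, 0.0354). The third was Haspin, the kinase that prepares the centromere for Aurora B (-0.42, 0.0404), named after its value was seen. Cenpo went the other way, at 42.8 and 62.9 CPM (0.46, adjusted p = 0.0227). Of 42 other spindle, kinesin and cytokinesis genes, 2 were called, both higher in GMYC: the mitotic kinase Pbk (-0.60, 0.0146) and Arpp19 (-0.39, 0.0222), which restrains the phosphatase that opposes Cdk1. Of these genes only Pbk was called whichever tumor was left out. The call of Cenpw was lost without GMYC tumors 3 or 6 or GTML tumor 5, with adjusted p-values up to 0.0594, that of Cenpo without GMYC tumors 3 or 5 (up to 0.0581) and that of Arpp19 without GMYC tumors 1 or 3 (up to 0.062). Zwilch was lost without GMYC tumors 1, 2, 3, 5 or 6 or GTML tumors 1, 4, 6 or 7 (up to 0.0815), and Haspin without GMYC tumors 1, 3, 5 or 6 or GTML tumors 1, 3, 5, 6 or 8 (up to 0.0967).

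The regulators that act on these promoters had a median log2 fold change of 0.05, with 2 of 23 called higher in GMYC and 1 higher in GTML. Of all genes tested, 9.71% were called higher in GMYC and 11.5% higher in GTML. Nfyb, a subunit of the CCAAT-binding factor NF-Y, had medians of 84.8 CPM in GMYC and 67.4 CPM in GTML tumors (-0.46, adjusted p = 0.019), and the repressor E2f6 had 68.9 and 46.5 CPM (-0.43, 0.0446). Rbl2 (p130), the pocket protein of the DREAM complex, was higher in GTML, at 75.7 to 108 CPM against 33.6 to 74.4 CPM in GMYC (0.60, adjusted p = 0.0206). Its models did not overlap, where 2.14% of all genes had every GTML tumor above every GMYC tumor. Nfyb and Rbl2 were called whichever tumor was left out, while E2f6 was called only without GMYC tumor 2 or GTML tumors 2 or 3 and otherwise had adjusted p-values up to 0.11. The activators did not pass: Foxm1 had medians of 88.3 and 82.0 CPM (adjusted p = 0.866, with a fold change of 0.05 whose sign changed with the tumors left out) and Mybl2, which encodes B-Myb, had 59.6 and 62.7 CPM (0.21, 0.408), both named after their values were seen.

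The cyclins and kinases of G1 and S phase, kept as a contrast, had 3 of 8 called, where 21.2% of all genes were called in either direction. Ccnd1, cyclin D1, went against the mitotic genes, with 14.4, 28.3 and 75.7 CPM in GMYC tumors and 86.3, 103 and 156 CPM in GTML tumors (1.71 ± 0.29, adjusted p = 0.00323). It did not overlap between the models, where 2.14% of all genes had every GTML tumor above every GMYC tumor. Its partner Cdk4 had medians of 212 CPM in GMYC and 157 CPM in GTML tumors (-0.40, adjusted p = 0.0149). Cdk2, the kinase of S phase entry, had 63.9 and 38.6 CPM (-0.64, adjusted p = 0.00848). All 3 were called whichever tumor was left out. Cdk6, the other partner of cyclin D1, did not pass (2.401, 33.5 and 83.8 CPM in GMYC tumors and 6.01, 10.1 and 22.4 CPM in GTML tumors, -1.73 ± 0.64, adjusted p = 0.0657) and is named after its value was seen. It passed without GMYC tumor 2 (adjusted p = 0.0362) or GMYC tumor 6 (0.029), and with DESeq2 (0.0265). Cyclin D1 thus differed in the opposite direction from Cdk2, Cdk4 and the 10 mitotic genes called.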

How the data were processed

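RNA of 6 GMYC and 8 GTML tumors was used. The authors aligned reads to mm9 with STAR and Bowtie and counted them per gene with featureCounts on a GENCODE annotation, and the deposited values are whole-number counts without normalization. The submitters' processing notes name STAR 2.4.0, Bowtie2 2.2 and Subread 1.5.2. Handling of duplicates and strand is not given in the sources used here. Besides the overlaps given above, Nek2, Cdca8, Plk1 and Knstrn share 298, 232, 156 and 123 exon bases with genes on the other strand. Cdc25b, Cdc20 and Kif18a share 92, 53 and 11. Top2a shares 122 with a small nucleolar RNA gene on its own strand. The part of these overlaps in the counts was not tested. Another 18 columns of per-sample counts match no label, so onalespib-treated cells and Arf knockout samples were not analysed here.

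Symbols and exon lengths came from GENCODE M21 (GRCm38) by Ensembl identifier, and 32620 of 37310 genes (87.4%) had both. Gene coordinates are not given because the counts were made on mm9. The promoter sequences are from RefSeq (GRCm38.p6). None was matched for Aurkb, Cdc25c, Incenp, Spc24, Kif20a, Ccna2, Tpx2 and Usp44.

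Counts were fitted with edgeR 4.0.16 in R 4.3.3 with TMM scaling, its quasi-likelihood test and no covariate, p-values being adjusted by Benjamini-Hochberg. Genes were kept where 3 or more tumors exceeded a CPM of 1. Fold changes use edgeR's default prior count, and the standard error is the absolute fold change divided by the square root of F. The log2 CPM used for tumor means and correlations has a prior count of 2. The labels do not say that tumors came from separate animals, so p-values measure the spread between these samples. No pair of libraries of a model agreed within sampling noise (chi-square per degree of freedom at least 5.71). The standard errors of the fit reflect the spread between tumors as well as counting error. Alternatives were limma-voom (limma 3.58.1), DESeq2 1.42.0, other scalings and filters, a replicate block, covariates and omission of tumors. Python 3.11.15 with matplotlib 3.10.9 drew the figures.

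The members and lists were chosen with earlier results of these data known. Values are given in full for every member called, for the 2 members of each role with the largest absolute fold change, for the members highest and lowest per kilobase, and for the 3 called genes with the smallest p of each other list. In counts simulated on this comparison (21024 genes), edgeR called 23 of 50 genes with a log2 fold change of -1, 33 of 50 with 1, 45 of 50 with -2, 50 of 50 with 2 and 4 of 20824 unchanged genes.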

Additional observations from a re-analysis of the deposited data

Results flagged for a closer look

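Among 6 GMYC or 8 GTML tumors, a tumor was singled out where its gap to the next tumor took more of the range than Dixon's 95% critical value. This was met 13 times in the 88 sets of values examined, where chance gives about 4.4 (1 in 20). The sets are not independent, since the genes vary together.

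GMYC tumor 6 was the high tumor in 9 of the 13 cases. Its level was 100.7 CPM for Ccnb2 (next tumor 59.9), 61.16 for Cdc25b (35.6) and 96.89 for Cdc25c (51.02). It was 130.8 CPM for Plk1 (85.11), 111.9 for Birc5 (74.57) and 89.41 for Mad2l1 (56.84). It was 135.6 CPM for Cenpa (81.98), 135.7 for Ndc80 (77.01) and 106.5 for Spc25 (53.48). This is the GMYC tumor with the lowest Myc level (33.3 CPM), and the part of that difference in its mitotic levels was not tested.

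GTML tumor 2 was the high GTML tumor for Usp44, at 19.97 CPM where the next GTML tumor had 6.86, and for Mad2l1, at 69.32 CPM where the next had 48.06. On the low side, GTML tumor 1 had 60.18 CPM of Kif20b (next 126.5), and GTML tumor 6 had 42.75 CPM of Nuf2 (next 71.13).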

How the results depend on the processing

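In all settings tried, 0 members were called higher in GTML. Of the 10 members called higher in GMYC, all 10 were called with RLE size factors, plain library sizes, a stricter filter, DESeq2 or protein-coding genes alone, and 9 with limma-voom, with no filter or with counts thinned to 4602294. The causes of the following changes were not tested, beyond the smaller sets of tumors or genes that some settings use. The small nucleolar RNA split as a term left 6 members called, the tumors at 0.3% or more left 0, and the Y-linked covariate left 1. The other mitotic lists (12 called higher in GMYC, 3 in GTML) gave 0 and 0 in the tumors at 0.3% or more, 4 higher in GMYC with the Y-linked covariate and 1 higher in GTML in the tumors under 0.3%. Omitting both GMYC tumor 6 and GTML tumor 2, chosen after seeing the data, gave 8 higher in GTML.

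Counts over all genes (2418 higher in GTML, 2041 in GMYC) became 1607 and 1357 among protein-coding genes, 0 and 2 in the tumors at 0.3% or more, 1328 and 1334 in the tumors under it, and 1125 and 554 with the Y-linked covariate. The split as a term gave 1428 higher in GTML. Leaving out 1 tumor gave 4 (without GMYC tumor 3) to 19 (without GTML tumor 2) members called, 6 (without GMYC tumor 3) to 19 (without GMYC tumor 4) other mitotic genes higher in GMYC and 2 (without GMYC tumor 3) to 5 (without GMYC tumor 6) higher in GTML. Over all genes it gave 1433 (without GMYC tumor 3) to 3264 (without GTML tumor 2) higher in GTML and 1184 to 3166 higher in GMYC, at the same omissions.

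The tumor numbers do not pair the models: deviations of same-numbered tumors correlated at -0.21 to 0.24, 1 of 6 pairs was above 0.1, and 1 of 6 GMYC tumors was closest to its own number. With a replicate block on tumors 1 to 6, edgeR called 0 members (9 at an unadjusted p under 0.05), 1 other mitotic gene higher in GTML and 0 higher in GMYC, and 161 and 90 of all genes. Without the block the same tumors gave 6 members and 1326 and 1054 genes, a fit added after seeing the data.

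Some log2 fold changes that were not called changed sign. In the tumors at 0.3% or more small nucleolar RNA, Nek2 was 0.28, Cdca8 0.25, Bub3 0.028, Mad2l1 0.074, Cdc20 0.23, Kif2c 0.078, Kif4 0.32, Cenpa 0.0055, Nuf2 0.070, Cenpf -0.12 and Foxm1 -0.18. In the tumors under it, Cdc25b was -0.085, Espl1 -0.12 and Foxm1 -0.0074. With the split as a term, Cenpf was -0.026 and Foxm1 -0.085. Foxm1 was -0.021 with and without the block. Leaving out 1 tumor gave -0.18 to 0.018 for Nek2, -0.30 to 0.0085 for Bub1, -0.23 to 0.098 for Kif4 and -0.26 to 0.0095 for Kif20b, each above 0 without GMYC tumor 6 alone, and -0.039 (without GTML tumor 7) to 0.19 (without GMYC tumor 6) for Foxm1, also below 0 without GMYC tumor 5 or GTML tumor 5. Without GMYC tumor 6 and GTML tumor 2, Nek2 was 0.0016 and Kif4 0.039.

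In the simulated counts, 23 of 50 genes at a log2 fold change of -1 were called, with 20824 of 21024 genes unchanged. In the real fit 4459 genes were called. An adjusted p depends on how many genes differ, so the simulated share called does not carry over to the members. With 6 and 8 tumors, a member that did not pass is not shown to be equal between the models.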
